A study of Mus musculus with 4 samples.

Results

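The kinases of the mitogen-activated protein (MAP) kinase cascades were taken as all genes whose name on the array is Map4k, Map3k, Map2k or Mapk followed by a number. This gave 40 of 28149 genes: 5 MAP kinase kinase kinase kinases (Map4k), 15 MAP kinase kinase kinases (Map3k), 7 MAP kinase kinases (Map2k) and 13 MAP kinases (Mapk). Each gene was represented by the brightest of its probes, out of 79 probes for the 40 genes. Of the 40 kinases, 36 passed the filter on dim probes, and all 36 were well above background on all 4 arrays.

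The samples were 4 cultures of bone marrow from male C57BL/6 mice, 2 wild type and 2 miR-223 knockout. All were grown in GM-CSF, a growth factor of granulocytes and macrophages, at 40 ng/ml over 4 days, and immature granulocytes that had expanded were then sorted from them. Each RNA was read on 1 Agilent mouse array, and the question here is how the cascade transcripts compare without miR-223, a microRNA abundant in granulocytes. The labels name neither the allele of the knockout nor the markers of the sort, and they leave unsaid whether each replicate is a separate mouse. P-values therefore measure only the spread between these samples, which may be technical.

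A MAP kinase cascade is a relay of protein kinases: a MAP kinase kinase kinase phosphorylates a MAP kinase kinase, which phosphorylates a MAP kinase on a threonine and a tyrosine of its activation loop. The Map4k kinases can act above this relay. The main arms end in the ERK kinases such as ERK1 (Mapk3), which carry growth factor and cytokine signals, in the JNK kinases (Mapk8 to Mapk10), in the p38 kinases (Mapk11 to Mapk14) and in ERK5 (Mapk7). In granulocytes, p38 and ERK signalling is known for its part in the response to cytokines, microbial products and chemoattractants. The relay is switched by phosphorylation of the proteins, which a transcript array does not measure.

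The knockout lacks miR-223. The mature strand that carries the known targeting, miR-223-3p, is given here as RNA from RefSeq (GRCm38.p6, chromosome X, 96242884 to 96242905, plus strand), with the seed, bases 2 to 8, in capitals. Below it stands the 1 stretch among the 79 kinase probes that holds the DNA letters AACTGAC, the reverse complement of that seed. It lies in a probe of Map3k12 on chromosome 15 (102328148 to 102328207, build mm9), with the matching letters in capitals.
mmu-miR-223-3p: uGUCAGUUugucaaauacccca
Map3k12 probe: cAACTGACatccatttgtg
These letters were found in 1 of 79 kinase probes (1.27%) and in 153 of all 41174 probes of 60 bases (0.372%). The opposite strand, GTCAGTT, was found in 0 kinase probes and in 0.367% of all probes. A probe covers 60 bases of a transcript, so the count says nothing of the rest of it, and a match is a description of letters, not a target site. That probe was dim, with levels of -6.40 and -6.85 in wild type and -5.02 and -6.14 in knockout, and it was well above background on 1 array.

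Levels here are log2 intensities relative to the array's 75th percentile, which is set to 0, and each difference is knockout minus wild type on the log2 scale. Levels of different probes were not set against each other, since probes differ in brightness for the same amount of RNA. In intensity units that percentile was 586 and 486 for wild type and 514 and 493 for knockout. Wild-type array 2 had 57.6% of its probes well above background, against 62.2% to 63.5% on the other arrays. No probe was named for Mir223, so the knockout itself could not be checked on these arrays. The neutrophil granule genes that mark the labelled cells were bright on every array, with mean levels of 6.78 to 7.11 for 5 genes of early granulocyte precursors.

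No kinase of the cascades passed an adjusted p of 0.05 (limma), as was so for all 16579 genes tested, where 0% were called. As point estimates, most differences of the kinases were small. Of 36 kinases, 32 (88.9%) differed by less than 1.3-fold, where 76.4% of all tested genes did. By 2-fold 0 kinases differed, where 3.59% of all genes did. The limma confidence intervals passed 1.3-fold for kinases such as Map3k1 (0.806 to 1.58) and Mapk7 (0.8 to 1.54), but not for Map4k1 (0.773 to 1.21). Equal levels in the 2 genotypes were therefore not shown. The median size of a difference was 0.158, near the median standard error (SE) of 0.15. The median size was 0.184 over all tested genes. At an unadjusted p under 0.05, 2 kinases were higher in knockout (Map3k12 and Map3k8), where 8.04% of all genes were, and 0 were lower, where 5.55% of all genes were. The smallest adjusted p of a kinase was 0.274 (limma).

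Small positive differences were in the majority. The difference was above 0 for 28 of 36 kinases (77.8%) and for 54.8% of all tested genes, and the median was 0.13 against 0.03. Each knockout array exceeded each wild-type array for 14 kinases, where 28% of all genes did so, and each was lower for 2 kinases, where 20.1% of all genes were. In the other 20 the genotypes overlapped. In RNA of a whole sorted sample, a lower value from fewer cells of a type and one from less RNA per cell cannot be told apart. This positive lean was largely lost when wild-type array 2 was left out. That array had the lowest of the 4 values for 20 of 36 kinases and the highest for 1. Over all 16579 tested genes, it was the lowest for 5062 and the highest for 4161. Without it, 20 of 36 kinases (55.6%) had a positive difference, beside 53.6% of all genes, and the median was 0.04. Without wild-type array 1, 30 of 36 kinases (83.3%) were positive, beside 55.6% of all genes, and the median was 0.18. With 1 array left out, the counts of kinases lying apart below wild type were 3 without wild-type array 1, 10 without wild-type array 2, 6 without knockout array 1 and 4 without knockout array 2, where between 27.9% and 35.5% of all genes lay apart in that direction.

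**Figure D1:**
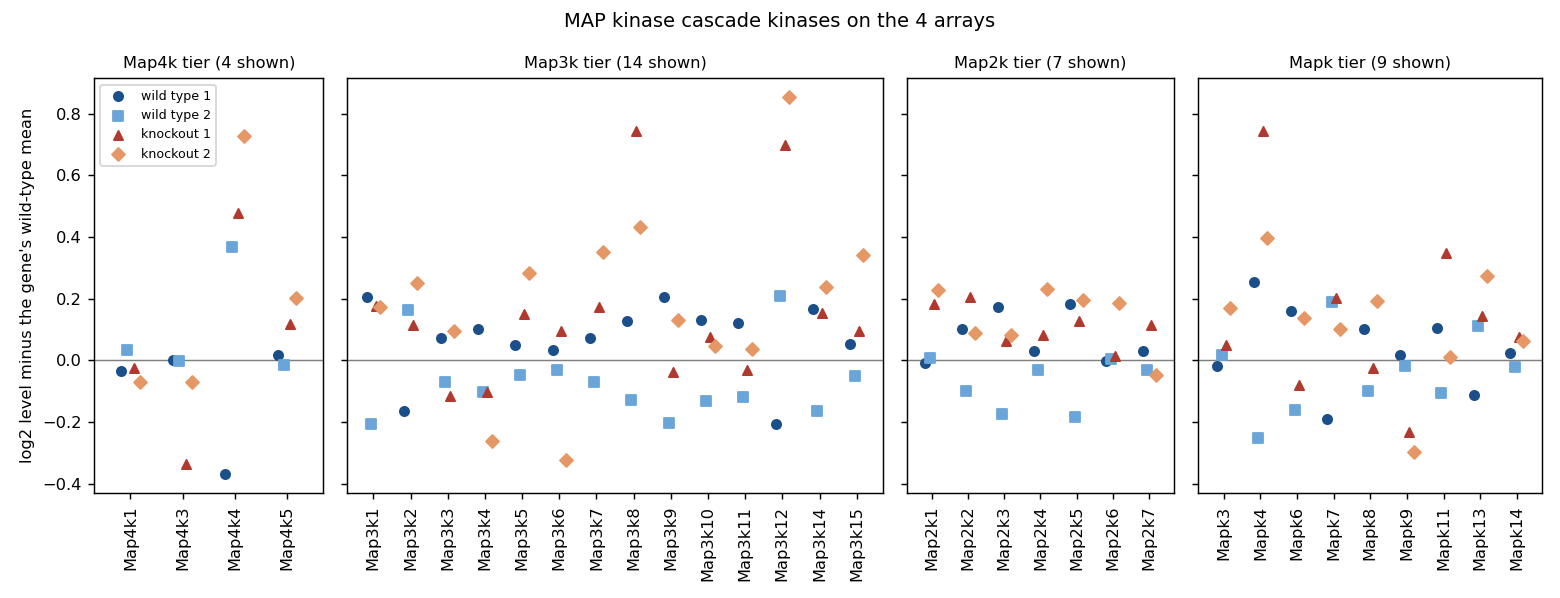
Log2 level on each of the 4 arrays minus the gene's own wild-type mean (vertical axis, log2 units) for 34 tested kinases by tier, with blue circles and squares for wild-type arrays 1 and 2 and red triangles and orange diamonds for knockout arrays 1 and 2. Both knockout points lie well above the wild-type points for Map3k8 and Map3k12.

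The Map4k tier, the sterile-20 related kinases above the relay, held both signs. In it 2 of 5 were positive, where 54.8% of all tested genes were, and the median difference was -0.03. Map4k4, which is linked to JNK signalling, cell shape and migration, was at 2.83 and 3.57 in wild type and at 3.68 and 3.93 in knockout. The difference was 0.60 ± 0.29 (SE, n = 2 arrays per group; 1.52-fold; limma adjusted p = 0.443), and its 95% interval ran from -0.17 to 1.37. Wild-type array 1 stood apart as the lowest, and the difference was 0.23 without it and 0.97 without wild-type array 2. Both other probes of Map4k4 gave positive differences, at 0.38 with the genotypes overlapping and at 0.62 without overlap.

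Map4k1 (HPK1), a brake on antigen receptor signalling in blood cells, was at 3.99 and 4.06 in wild type and at 4.00 and 3.95 in knockout. Its difference of -0.05 ± 0.12 was under its error. Map4k3 (GLK), which is tied to amino acid sensing, was at -2.55 on each wild-type array and at -2.89 and -2.62 in knockout. Its difference was -0.20 ± 0.15, but its other probes gave 0.07 and 0.15. Map4k5 was at 0.88 and 0.85 against 0.98 and 1.07, a difference of 0.16 ± 0.12, with another well-measured probe at -0.11. For both genes the probes thus gave no common direction.

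The Map3k tier receives signals from receptors and stress sensors, and it held the kinases with the smallest p. Of 14 tested, 11 had a positive difference, where 54.8% of all tested genes did, and the median was 0.18. In 5 of the 14 both knockout arrays lay above wild type, where 28% of all genes did so. Map3k12 (DLK), a dual leucine zipper kinase best known from the stress response of neurons, was at -2.10 and -1.68 in wild type and at -1.19 and -1.04 in knockout. The groups did not overlap. The difference was 0.78 ± 0.19 (1.71-fold; 95% interval 0.27 to 1.28; unadjusted p = 0.0121, limma adjusted p = 0.274). By p it stood at rank 731 of 16579 genes. The chosen probe lies on chromosome 15 (102329888 to 102329947, mm9). Both other probes, the one with the seed match among them, were well above background on 1 array each, so no fold was taken from either alone. Across the other settings the difference ran from 0.49 with normexp background correction to 1.06 with the mean over all probes, a value that the dim probes raise, at 1.04 and 1.35.

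Map3k8 (TPL2, also called COT), the kinase that links Toll-like and TNF receptors to ERK, was at -0.99 and -1.25 in wild type and at -0.37 and -0.69 in knockout. Again the groups did not overlap. The difference was 0.59 ± 0.18 (1.5-fold; 95% interval 0.11 to 1.07; unadjusted p = 0.0266, limma adjusted p = 0.32), from 1 probe. It ran from 0.43 without knockout array 1 to 0.74 without knockout array 2.

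Map3k7 (TAK1), which works downstream of interleukin-1 and TGF-beta receptors, was at -0.32 and -0.46 in wild type and at -0.22 and -0.04 in knockout, a difference of 0.26 ± 0.14. Map3k5 (ASK1), a kinase activated by oxidative stress, was at 0.57 and 0.48 against 0.68 and 0.81. Its difference was 0.22 ± 0.13, and a second probe gave 0.20 with the genotypes overlapping. Map3k15, a relative of Map3k5, was at -0.71 and -0.82 against -0.67 and -0.43, a difference of 0.22 ± 0.15. By the chosen probes of all 3 genes the knockout arrays lay just above the wild-type arrays, and the 95% intervals included 0 (limma adjusted p = 0.482, 0.521 and 0.564).

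By their chosen probes, the other tested Map3k kinases overlapped between genotypes. Map3k14 (NIK), the kinase of non-canonical NF-kB signalling, had a difference of 0.20 ± 0.16, Map3k1 (MEKK1) one of 0.18 ± 0.18 and Map3k2 (MEKK2) one of 0.18 ± 0.17, with other well-measured probes of Map3k2 at 0.05 and 0.07. Map3k3 (MEKK3) was at -0.01 ± 0.15, Map3k4 (MEKK4) at -0.18 ± 0.15 with a second probe at -0.16, and Map3k6 (ASK2) at -0.11 ± 0.18 with a second probe at -0.35. The mixed-lineage kinases, which activate the JNK arm, were nearly level by their chosen probes: Map3k9 had a difference of 0.05 ± 0.19, Map3k10 one of 0.06 ± 0.15 and Map3k11 one of 0.00 ± 0.14. Other probes gave 0.63 and 0.98 for Map3k9, the latter well above background on 3 arrays, and 0.44 for Map3k10. On each of these other probes both knockout arrays lay above wild type. With the mean over all probes, Map3k9 was at 0.55 and Map3k10 at 0.25. Map3k13 (LZK), the closest relative of Map3k12, was well above background on 1 array and was not tested.

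**Figure D2:**
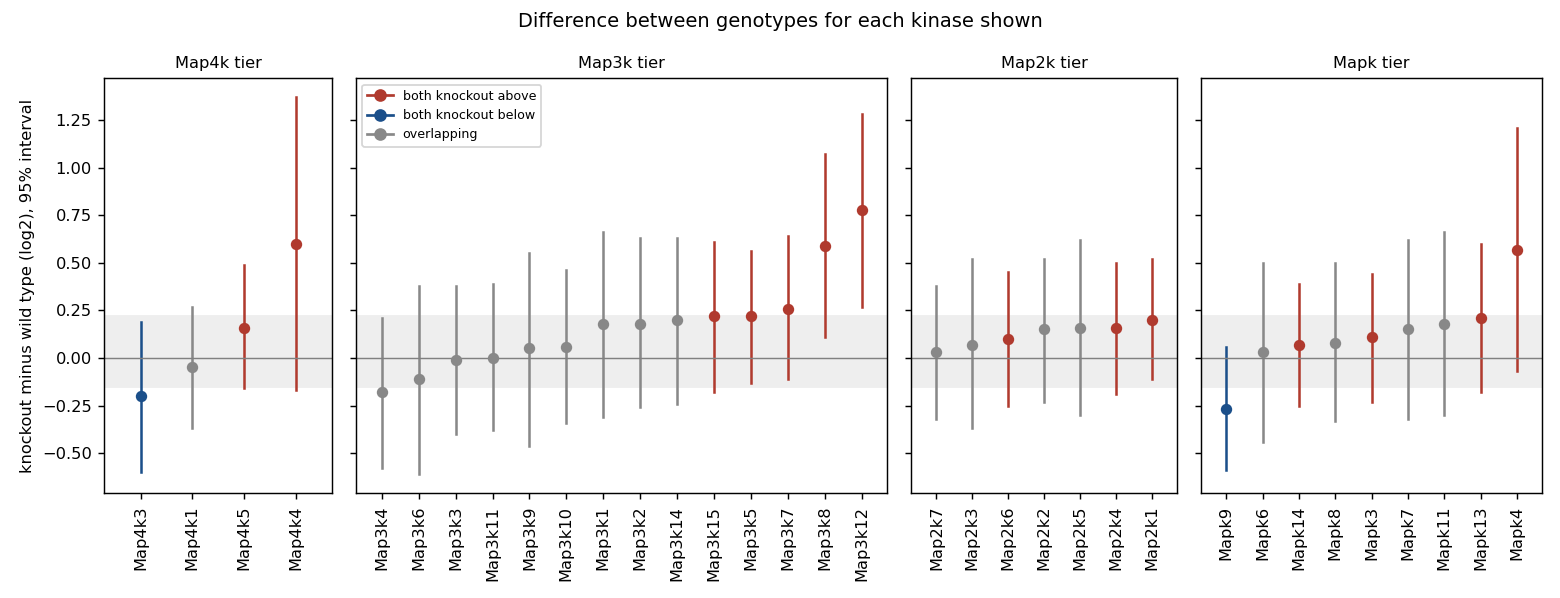
Knockout minus wild-type log2 difference (vertical axis) of 34 tested kinases by tier, with the 95% interval of limma as a bar, in red or blue where both knockout arrays lay above or below wild type and grey where they overlapped; the grey band holds the middle of all tested genes, from the lower quartile (-0.15) to the upper (0.22). The intervals of Map3k12 and Map3k8 lie above 0, and those of the other kinases shown include 0.

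All 7 MAP kinase kinases, which phosphorylate the MAP kinases directly, had positive differences, and all were small. They ran from 0.03 to 0.20 with a median of 0.15. Of all tested genes, 54.8% had a positive difference. In 3 of the 7 both knockout arrays lay above wild type, where 28% of all genes did so. Without wild-type array 2, Map2k3 was at -0.10 and Map2k5 at -0.02, and with the mean over probes Map2k7 was at -0.19. Map2k1 (MEK1), an activator of ERK, was at 2.89 and 2.91 in wild type and at 3.08 and 3.13 in knockout. The difference of 0.20 ± 0.12 had a 95% interval of -0.11 to 0.52 (limma adjusted p = 0.509). Map2k2 (MEK2), its partner, was at 3.02 and 2.82 against 3.13 and 3.01, a difference of 0.15 ± 0.14, with overlap.

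For the p38 arm, Map2k3 (MKK3) was at 1.63 and 1.28 in wild type and at 1.51 and 1.53 in knockout, a difference of 0.07 ± 0.17. Map2k6 (MKK6), the other main p38 activator, was at -0.35 on each wild-type array and at -0.34 and -0.16 in knockout, a difference of 0.10 ± 0.13. The genotypes were thus within one error of each other for both genes. Map2k4 (MKK4), which can activate JNK and p38, was at 2.80 and 2.74 against 2.85 and 3, a difference of 0.16 ± 0.13 with the knockout arrays above. Map2k7 (MKK7), an activator of JNK, was at 0.74 and 0.68 against 0.82 and 0.66. Its difference was 0.03 ± 0.13, and another probe gave -0.13. Map2k5 (MEK5), the activator of ERK5, was at -0.73 and -1.09 against -0.78 and -0.72. Its difference was 0.16 ± 0.17, with overlap, and a second probe gave 0.13.

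Among the MAP kinases, 10 of 13 were tested. Of these, 8 had positive differences, where 54.8% of all tested genes did, with a median of 0.10. Mapk3 (ERK1) was at 4.59 and 4.62 in wild type and at 4.65 and 4.78 in knockout, a difference of 0.11 ± 0.13 (95% interval -0.23 to 0.44), which is within its error. It also had a probe printed as 10 spots on every array. That probe averaged 4.43 and 4.45 in wild type and 4.59 and 4.62 in knockout, a difference of 0.16, with SDs over the spots of 0.05 to 0.11. Spots on 1 array are technical repeats of 1 RNA.

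Of the p38 kinases, Mapk14 (p38 alpha) was even across the arrays, at 3.83 and 3.78 in wild type and at 3.88 and 3.87 in knockout. These are means of 10 spots with SDs of 0.05 to 0.12, and the difference was 0.07 ± 0.12 (95% interval -0.25 to 0.39; limma adjusted p = 0.828). Mapk13 (p38 delta), which is known to be expressed in neutrophils, was at 5.06 and 5.28 against 5.32 and 5.44, a difference of 0.21 ± 0.15 with the knockout arrays above. Mapk11 (p38 beta) was at -3.92 and -4.13 against -3.67 and -4.01, a difference of 0.18 ± 0.18 with overlap. On 0 of 4 arrays was Mapk12 (p38 gamma) well above background.

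The JNK kinases held the MAP kinase with the lowest difference. Mapk9 (JNK2) was at -0.70 and -0.74 in wild type and at -0.95 and -1.02 in knockout, so that the knockout arrays were the lower pair. The difference was -0.27 ± 0.12 (1.20-fold higher in wild type; 95% interval -0.59 to 0.06; unadjusted p = 0.0847, limma adjusted p = 0.428). Its other probes gave -0.21 and 0.07, and the mean over its probes was -0.13. Mapk8 (JNK1) was at -1.79 and -1.99 against -1.91 and -1.70, a difference of 0.08 ± 0.15 (95% interval -0.33 to 0.50). A second Mapk8 probe, of up to 10 spots per array, was dim and well above background on 3 arrays, and it stood at -5.74 and -5.58 in wild type and at -5.00 and -4.82 in knockout. Mapk10 (JNK3), the neuronal form, was well above background on 1 knockout array and was not tested.

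Of the remaining MAP kinases, Mapk7 (ERK5) had a difference of 0.15 ± 0.18 and a second probe at 0.02. The atypical kinases lack the usual activation motif. Mapk4 (ERK4), one of them, was at -2.38 and -2.89 in wild type and at -1.89 and -2.24 in knockout. Its groups did not overlap, and the difference was 0.57 ± 0.24 (1.48-fold; 95% interval -0.07 to 1.21; unadjusted p = 0.0686, limma adjusted p = 0.399). It was 0.32 with normexp background correction and without wild-type array 2, and 0.82 without wild-type array 1. Mapk6 (ERK3), the relative of Mapk4, was at 1.25 and 0.93 against 1.01 and 1.23, a difference of 0.03 ± 0.18. A second Mapk6 probe, at -0.02 and 0.03 in wild type and at -0.31 and -0.34 in knockout, lay apart in the other direction, and the last gave -0.01. Mapk15 (ERK8), like Mapk12, stayed near background on all 4 arrays and was not tested.

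**Figure D3:**
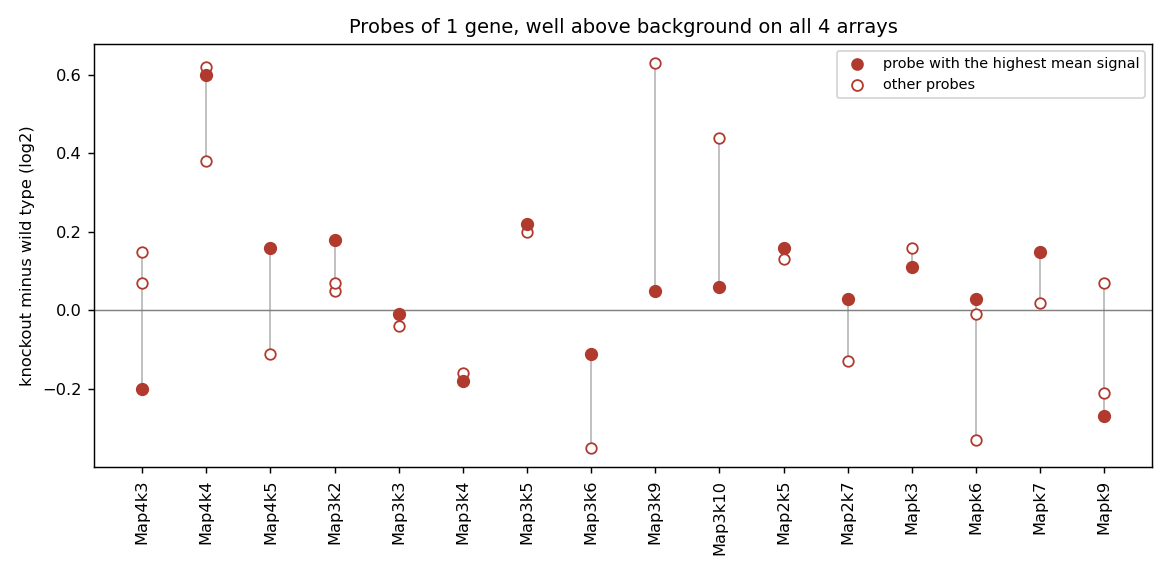
Knockout minus wild-type log2 difference (vertical axis) of every probe that was well above background on all 4 arrays, for 16 kinases with more than 1 such probe, filled for the brightest probe and open for the others, with a line over the span of a gene. In Map4k3, Map4k5, Map2k7, Mapk6 and Mapk9 the probes lie on both sides of 0.

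The probes of a gene show how far a difference depends on the probe chosen. They read the same 4 RNAs, so their agreement says nothing of the spread between samples. Some, like those of Mapk3, cover nearly the same bases. Of the 79 probes, 59 were well above background on all 4 arrays and 11 on none. In the 17 kinases with more than 1 such probe, the differences of a gene's probes spanned a median of 0.16, which is as large as the median size of a difference. The span was widest for Map3k9, at 0.58, and narrowest at 0.02. RefSeq names 3 more genes by the same pattern that the array lists under older names, Map3k19, Map3k20 and Map3k21. They are not counted among the 40. Probes of Map3k20 gave 0.02 and 0.15, the brighter probe of Map3k21 gave 0.56, and Map3k19 was not well above background.

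For the arms whose tested kinases are all reported here, the median difference was below the median SE. The p38 arm had 5 of 5 tested positive with a median of 0.10, the JNK arm 3 of 4 with a median of 0.06, and the ERK5 arm 3 of 4 with a median of 0.16. A positive difference was found for 54.8% of all tested genes. The mixed-lineage and zipper kinases, Map3k12 among them, had 4 of 4 tested positive with a median of 0.05. The median SE of these groups ran from 0.13 to 0.17.

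Genes around the kinases were read from lists of the same pathway, and none passed an adjusted p of 0.05 (limma). A first list held RAF and TAO kinases, which also activate MAP kinase kinases, and other kinases grouped with them. Of the 7 tested, 6 had a positive difference (median 0.12), where 54.8% of all tested genes did. Braf, the main RAF kinase upstream of MEK1, was at 1.13 and 0.94 in wild type and at 1.41 and 1.48 in knockout, a difference of 0.41 ± 0.14 (limma adjusted p = 0.336), while Taok1 and Dstyk were at 0.26 and 0.24. Dstyk was at 0.04 without wild-type array 1 and at 0.43 without wild-type array 2. Of 16 Ras proteins, exchange factors, adaptors and other Ras regulators, 10 were positive (median 0.15). The list mixes genes that switch Ras on with Rasa1 and Nf1, which switch it off. Rasa1 was at 0.37, with both knockout arrays above wild type, and Nf1 at -0.07, both named after their values were seen. Both knockout arrays lay above wild type for 9, where 28% of all genes did so, and below for 1, where 20.1% of all genes did. The 1 gene below was Rasgrp1, an exchange factor that loads Ras with GTP. It was at -0.80 and -0.40 against -1.54 and -1.72, a difference of -1.03 ± 0.19 (limma adjusted p = 0.248). Rras, a Ras relative, had a difference of 0.68 ± 0.18, and the adaptor gene Gab2, dim and well above background on 3 arrays, one of 1.3 ± 0.4. The Gab2 value was 0.21 with normexp background correction, and 0.85 without wild-type array 2.

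Of 16 tested scaffolds and adaptors, 9 were positive (median 0.04), with Spag9 (JIP4) at 0.32 ± 0.13, Pea15a, which holds ERK in the cytoplasm, at -0.32 ± 0.15 and Mapkbp1 at 0.23 ± 0.12. Of 10 kinases activated by MAP kinases, 5 were positive (median -0.04). Rps6ka3 (RSK2), a substrate kinase of ERK, was at 1.16 and 1.21 in wild type and at 0.66 and 0.70 in knockout, a difference of -0.50 ± 0.12 (limma adjusted p = 0.269). Its relatives Rps6ka2 and Rps6ka5 were at 0.29 ± 0.14 and -0.25 ± 0.14. Over the 5 tested Rps6ka genes, 4 differences were negative, with Rps6ka1 at -0.09 and Rps6ka4 at -0.10, both named after their values were seen. With the mean over probes Rps6ka3 was at -0.32. Normexp background correction gave 0.08 for Rps6ka2, -0.12 for Rps6ka5 and 0.11 for Mapkbp1. Without wild-type array 2 Pea15a was at -0.21, and without wild-type array 1 Rps6ka5 was at -0.13. Without knockout array 2 Rps6ka2 was at 0.19.

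Phosphatases and nuclear targets varied more within a genotype than the kinases did. The median gap between the 2 wild-type arrays was 0.496 for the phosphatases and 0.539 for the nuclear targets, against 0.204 for the kinases. Of 8 tested dual specificity phosphatases, which remove the activating phosphates from MAP kinases, 7 had a negative difference (median -0.10). A negative difference was found for 7496 of all 16579 tested genes. Dusp4 was at -0.42 ± 0.20 and Dusp10 at -0.45 ± 0.26, and Dusp1 was at 2.90 and 4.32 in wild type and at 1.26 and 3.38 in knockout, so that its groups overlapped. Single arrays set the size of these values: without wild-type array 2 Dusp4 was at -0.18 and Dusp10 at -0.13, without wild-type array 1 they were at -0.66 and -0.78, and Dusp1 ran from -0.22 without knockout array 1 to -2.35 without knockout array 2. Normexp background correction gave -0.20 for Dusp4 and -0.26 for Dusp10. Of the 4 tested Sprouty and Spred genes, which restrain Ras and RAF, 2 were positive. Spred1 was at -0.52 and -0.70 against 0.10 and 0.15, a difference of 0.73 ± 0.13 (limma adjusted p = 0.248), Spry1 at -0.78 ± 0.34 and Spred2 at -0.09 ± 0.13. With the mean over probes Spred1 was at 0.35, and Spry1 was at -0.32 without wild-type array 2 and at -1.25 without wild-type array 1. Of 15 nuclear targets, 10 were negative (median -0.19). Jun, the transcription factor that JNK phosphorylates, was at 1.51 and 2.37 in wild type and at -0.21 and 1.29 in knockout, a difference of -1.40 ± 0.59, with Jund at -0.53 ± 0.28. Fosb was at 1.57 and 2.56 against -2.43 and 1.82, so that knockout array 1 alone was far below the others. Jun ran from -0.65 without knockout array 1 to -2.15 without knockout array 2, Jund from -0.23 without wild-type array 2 to -0.82 without wild-type array 1, and Fosb was at -0.24 without knockout array 1 and at -4.49 without knockout array 2.

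**Figure D4:**
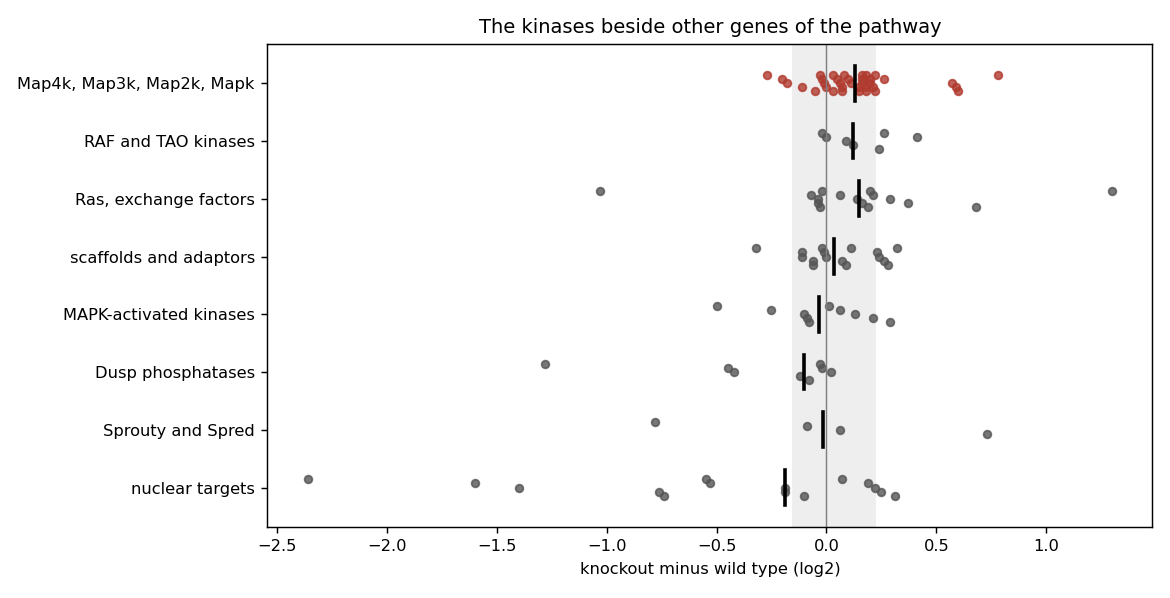
Knockout minus wild-type log2 difference (horizontal axis) with 1 point per tested gene, for the 36 kinases in red and the 7 lists of other pathway genes in grey; black bars are medians, the grey band runs from the lower to the upper quartile of all tested genes (-0.15 to 0.22), and vertical offsets of points carry no value. The kinases lie between -0.27 and 0.78, while the nuclear targets reach down to -2.36.

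Markers of other cells were read from the same arrays, and 0 passed an adjusted p of 0.05, with the smallest at 0.239 (limma). Over all 16579 tested genes, 7496 had a negative difference and 54.8% a positive one. Of 15 macrophage and monocyte markers, 13 had a negative difference, with mean levels of 0.71 and 0.90 in wild type and 0.17 and -0.06 in knockout. The 2 positive ones were Emr1 at 0.75 and Fcgr1 at 0.19, each with both knockout arrays above wild type. Of 8 tested mast cell and basophil markers 7 were negative, at 0.90 and 0.87 against 0.36 and -0.83, while the mast cell protease genes Mcpt4, Cma1, Tpsab1 and Tpsb2 were not well above background on any array. Of 11 dendritic cell markers 9 were negative, and 9 of 10 later granulocyte genes were positive, at 6.44 and 6.99 in wild type and 6.99 and 7.40 in knockout. Early granulocyte precursor genes (4 of 5 positive, median 0.13), B cell (2 of 5, -0.22), T and NK cell (4 of 5, 0.04) and erythroid markers (2 of 5, -0.04) held both signs. The part of these cells in the differences of the kinases was not tested.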

How the data were processed

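The deposited files hold intensity values per spot of 4 one-colour Agilent arrays (design 014868, 1 slide), made with Agilent Feature Extraction 10.5.1.1, per the file headers. The authors' deposited log2 values of the same arrays equal log2 processed intensity plus 1 constant per array (99.8% of 41174 probes within 0.01; median 5.026 on each array), by comparison with the scanner values, and served as an alternative.

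Control and outlier spots were left out, spots of a probe were averaged as log2 processed intensity, and each array's 75th percentile was subtracted. Each gene name was represented by its brightest probe, and 16579 genes were tested, those well above background on both wild-type or both knockout arrays. The test was limma's lmFit and eBayes, two-sided, and p-values were adjusted by Benjamini and Hochberg's method over all these genes. The script was tested on simulated data. The number of arrays limits the precision. Coordinates are those of the array files (mm9). Of 79 kinase probes, 62 had their accession in RefSeq, all under the same symbol.

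The members, the 7 pathway lists and the 8 marker lists were chosen with earlier results of these data known. Every member is given, except 2 tested kinases that are counted in the totals and not reported singly here. Values on all 4 arrays are given for up to 5 members per tier with the smallest p, for core kinases, and for those whose probes differ in sign. From each pathway list, the 3 genes with the smallest p are named.

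Alternatives were normexp background correction (offset 50), quantile normalization, the authors' values, no filter or a stricter filter on dim probes, the mean over a gene's probes, the replicate number as a block, and leaving out each array. Software versions were limma 3.58.1 and the data.table package at 1.17.8, with jsonlite 2.0.0, under R 4.3.3.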

Additional observations from a re-analysis of the deposited data

How the results depend on the processing

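In all 11 other settings, 0 kinases passed an adjusted p of 0.05 (limma), with the smallest adjusted p of a kinase between 0.212 and 0.768 and 1 to 4 of them at an unadjusted p under 0.05, where 6.49% to 17.1% of all genes were. Over all genes, normexp background correction called 5 genes, the authors' values 1 and the other settings 0. The median over the kinases was 0.10 to 0.15 in the settings that kept all arrays, and 0.04 to 0.18 with 1 array left out. Kinases with both knockout arrays below wild type numbered 1 with normexp (17.9% of all genes), 4 with quantile normalization (21.8%) and 4 with the mean over probes (19.8%). With 1 array left out, 16 to 26 kinases lay apart above wild type (37.7% to 44.5% of all genes; 16 kinases against 42.5% without wild-type array 2) and 3 to 10 below (27.9% to 35.5%), where fewer arrays make separation easier. Of the 36 kinases, 19 kept their sign in all settings and 17 did not, 11 of them under 0.1 in size. Signs turned with normexp for Map4k1 (0.06), Map3k3 (0.00) and Map3k10 (-0.04), with quantile normalization for Map3k11 (-0.01), and with the authors' values for Map3k3 (0.01). With the mean over probes they turned for Map4k3 (0.01), Map3k4 (0.09), Map2k7 (-0.19), Mapk6 (-0.10) and the scaffold gene Spag9 (-0.03). With 1 array left out, differences ran from -0.03 to 0.38 for Map3k1, -0.12 to 0.10 for Map3k3, -0.32 to 0.09 for Map3k6, -0.16 to 0.25 for Map3k9, -0.07 to 0.19 for Map3k10, -0.12 to 0.12 for Map3k11, -0.10 to 0.24 for Map2k3, -0.02 to 0.35 for Map2k5, -0.05 to 0.11 for Map2k7, -0.13 to 0.19 for Mapk6, -0.04 to 0.34 for Mapk7 and -0.02 to 0.19 for Mapk8. The cause of these turns was not tested, beyond the fewer arrays and other probes that the settings use. A group reduced to 1 array was assumed to vary like the other. With the replicate number as a block, 0 kinases passed and the median was 0.13. Deviations of equally numbered arrays correlated at 0.175 over all genes and 0.269 over the kinases, which for 2 pairs does not show that the numbers pair the samples. Signal over background limited 4 kinases, Map3k13, Mapk10, Mapk12 and Mapk15, which were not tested.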
